A study of Homo sapiens with 38 samples.

Results

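The genes examined here encode the SR proteins (symbols starting SRSF) and the heterogeneous nuclear ribonucleoproteins (symbols starting HNRNP). All protein-coding records of GRCh38.p14 in RefSeq with such a symbol were taken, which gave 38 genes, 12 SRSF and 26 HNRNP, of 20050 protein-coding records on the chromosomes of the peak lists. The data come from chromatin immunoprecipitation and sequencing (ChIP-seq) in Jurkat cells, an established line from a human T-cell acute lymphoblastic leukaemia. The series holds 38 samples in 19 groups, and 3 groups of 2 samples each were used: GATA3, BHLHE40 and the histone mark H3K27ac in cells carrying the control lentivirus named Ctrl_LV. All 3 groups had been stimulated with the phorbol ester PMA at 50 ng/ml and the calcium ionophore ionomycin at 500 ng/ml, for 5 hours in the sample labels and 2 hours in the treatment protocol. The edited cells, the BHLHE40 over-expressing cells and the inputs were not analysed here.

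Each group is present as 1 list of peaks, made by the authors from both samples. No value per sample is given, so no spread between replicates can be stated, the read depth is unknown, and every comparison below is a description without a test. The strength given for a peak, its signal value, was assigned by the authors. A gene was counted as having a peak when at least 1 bp of a peak fell in the gene record or in the 2 kb on either side. Coverage is the percentage of the bases of the record, without flanks, that lie inside peaks. The cell label was checked on blood-cell markers: all 10 T-cell genes of a fixed list had an H3K27ac and a BHLHE40 peak, against 2 of 4 and 2 of 4 B-cell genes, 2 of 4 and 0 of 4 myeloid genes and 1 of 2 and 0 of 2 erythroid genes. GATA3 peaks were at 7 of 10 T-cell, 1 of 4 B-cell, 2 of 4 myeloid and 0 of 2 erythroid genes.

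SR proteins carry RNA-recognition motifs and a tail rich in arginine and serine, bind exonic enhancers and recruit the splicing machinery, and are switched by phosphorylation. The hnRNP proteins coat nascent transcripts, often repress exons, and act in export, stability and translation of messenger RNA. Many genes of both families control their own output by splicing in exons that lead to decay of the transcript. In activated T cells these proteins shape splice choices such as that of CD45. GATA3 is a zinc-finger factor of the T-cell lineage. BHLHE40 is a basic helix-loop-helix repressor that binds the E-box motif CACGTG, and H3K27ac marks active promoters and enhancers.

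BHLHE40 peaks were found at 31 of the 38 genes (81.6%), where 58.8% of all protein-coding records had one. GATA3 peaks were found at 26 genes (68.4%), against a background of 44.3%. H3K27ac peaks were found at 33 genes (86.8%), against 75.0%. All 3 lists had a peak at 25 genes (65.8%, background 38.4%), and at 23 genes (60.5%, background 30.0%) peaks of all 3 lists overlapped at one place. BHLHE40 was present at 11 of 12 SRSF genes and 20 of 26 HNRNP genes, GATA3 at 8 and 18, and H3K27ac at 12 and 21. The 38 records are short, with a median of 11372 bp against 24093 bp over all protein-coding records, so their share of genes with a peak was reached in smaller windows.

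BHLHE40 peaks covered a median of 10.7% of the record over all 38 genes (quartiles 3.73% and 44.7%), against 0.497% over all protein-coding records. The median was 24.5% for the SRSF genes and 8.39% for the HNRNP genes. GATA3 peaks covered a median of 2.66% over the 38 genes, where the median over all records was 0, and H3K27ac peaks 9.31% against 1.84%. The H3K27ac median was 9.88% for the SRSF genes, below that of BHLHE40, and 9.0% for the HNRNP genes, no lower than that of BHLHE40. In the HNRNP genes BHLHE40 and H3K27ac differed mainly at the genes of highest coverage, with upper quartiles of 38.6% and 13.8%. Coverage is easier to reach in a short gene. Among records of 5 to 50 kb the median BHLHE40 coverage was 11.6% over 29 of the SR and hnRNP genes and 1.22% over 10572 protein-coding records.

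**Figure D1:**
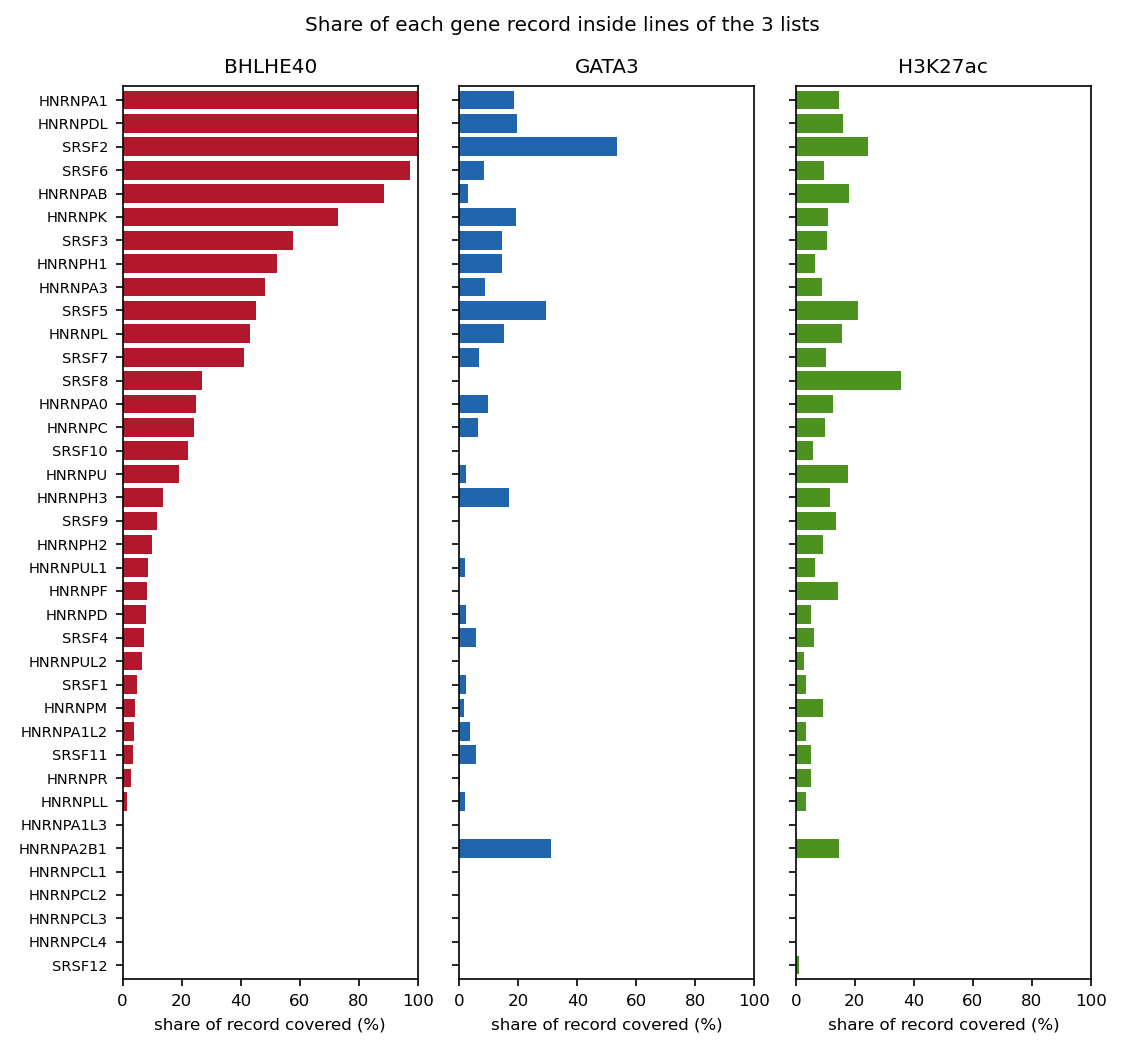
Percentage of each of the 38 gene records covered by peaks of each list, 1 bar per gene and panel, ordered by BHLHE40 coverage. BHLHE40 fills 100% of HNRNPA1, HNRNPDL and SRSF2, GATA3 passes 50% at SRSF2 and no gene reaches 50% for H3K27ac.

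At 8 genes (21.1%) BHLHE40 peaks covered at least 50% of the record, a level reached by 1.45% of all protein-coding records, and at 4 genes (10.5%) at least 90%, reached by 0.738%. The 8 genes were SRSF2, SRSF3, SRSF6, HNRNPA1, HNRNPDL, HNRNPAB, HNRNPK and HNRNPH1. For GATA3 the 50% level was reached by 1 gene, SRSF2 (background 0.354%), and for H3K27ac by 0 genes (background 0.703%). Among records of 5 to 50 kb, 7 of 29 of the SR and hnRNP genes (24.1%) reached 50% for BHLHE40, against 0.539% of protein-coding records. Positions below are on GRCh38, counted from 1. The gene table used gives no exons, so no peak is placed in an exon, intron or untranslated region.

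Among the SR genes, SRSF2, a regulator of exon inclusion often mutated in myeloid neoplasms, was covered whole. Its record on chromosome 17 (76734115 to 76737411) lay inside 1 BHLHE40 peak of 7474 bp (76731014 to 76738487) with a signal value of 28.2, rank 1531 of 26205. GATA3 covered 53.4% of this record with 1 peak of 2677 bp, the highest GATA3 coverage of the 38 genes, and 1 H3K27ac peak covered 24.5%, with a second outside the record. The BHLHE40 peak also reached into the records of MFSD11, which overlaps SRSF2, and of METTL23, which lies 234 bp from it, so it cannot be assigned to SRSF2 alone. SRSF6 on chromosome 20 (43457896 to 43464243) was covered over 97.3% by 3 BHLHE40 peaks in a row, of 1329, 1928 and 5983 bp, and no other gene record lay within 2 kb. SRSF3, the smallest SR protein and an adaptor of mRNA export, was covered over 57.8% of its record on chromosome 6 (36594362 to 36605600), by 1 peak of 3049 bp at the start and peaks of 550 and 4580 bp near the other end. SRSF1, the prototype of the family, had a BHLHE40 coverage of 4.89%. Its strongest peak, with a signal value of 29.0 (58006356 to 58008154 on chromosome 17), had its summit 28 bp before the annotated start. A wider peak of 2117 bp (57986877 to 57988993, signal value 12.3) lay just past the 3′ end and reached into the record of VEZF1.

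Among the hnRNP genes, HNRNPA1, an abundant exon repressor, lay inside 1 BHLHE40 peak of 10142 bp (chromosome 12, 54279248 to 54289389, record 54280726 to 54287087) with a signal value of 23.2. HNRNPDL, a relative of the AU-rich-element binding HNRNPD, lay inside 1 peak of 11807 bp (chromosome 4, 82419850 to 82431656, record 82422564 to 82430462) with a signal value of 23.5. Both peaks also reached into a neighbouring record, that of CBX5 at HNRNPA1 and that of ENOPH1 at HNRNPDL, so neither can be assigned to the hnRNP gene alone. HNRNPAB was covered over 88.4% by 3 peaks (record on chromosome 5, 178204533 to 178211163), which in part also lay in the overlapping record of PHYKPL. HNRNPK, which binds C-rich RNA and DNA, was covered over 72.8% by 5 peaks spread along its record on chromosome 9 (83968083 to 83980615). Of these peaks, 1 held the microRNA gene MIR7-1, and the peak over the start reached into the overlapping record of RMI1. HNRNPH1, which binds runs of G, was covered over 52.2% by 2 peaks, 1 of them 13723 bp wide (chromosome 5, 179609200 to 179622922), the fifth widest in the BHLHE40 list by its own width. HNRNPU, a nuclear scaffold protein, had 1 peak of 3510 bp over its start and a coverage of 19.3%.

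**Figure D2:**
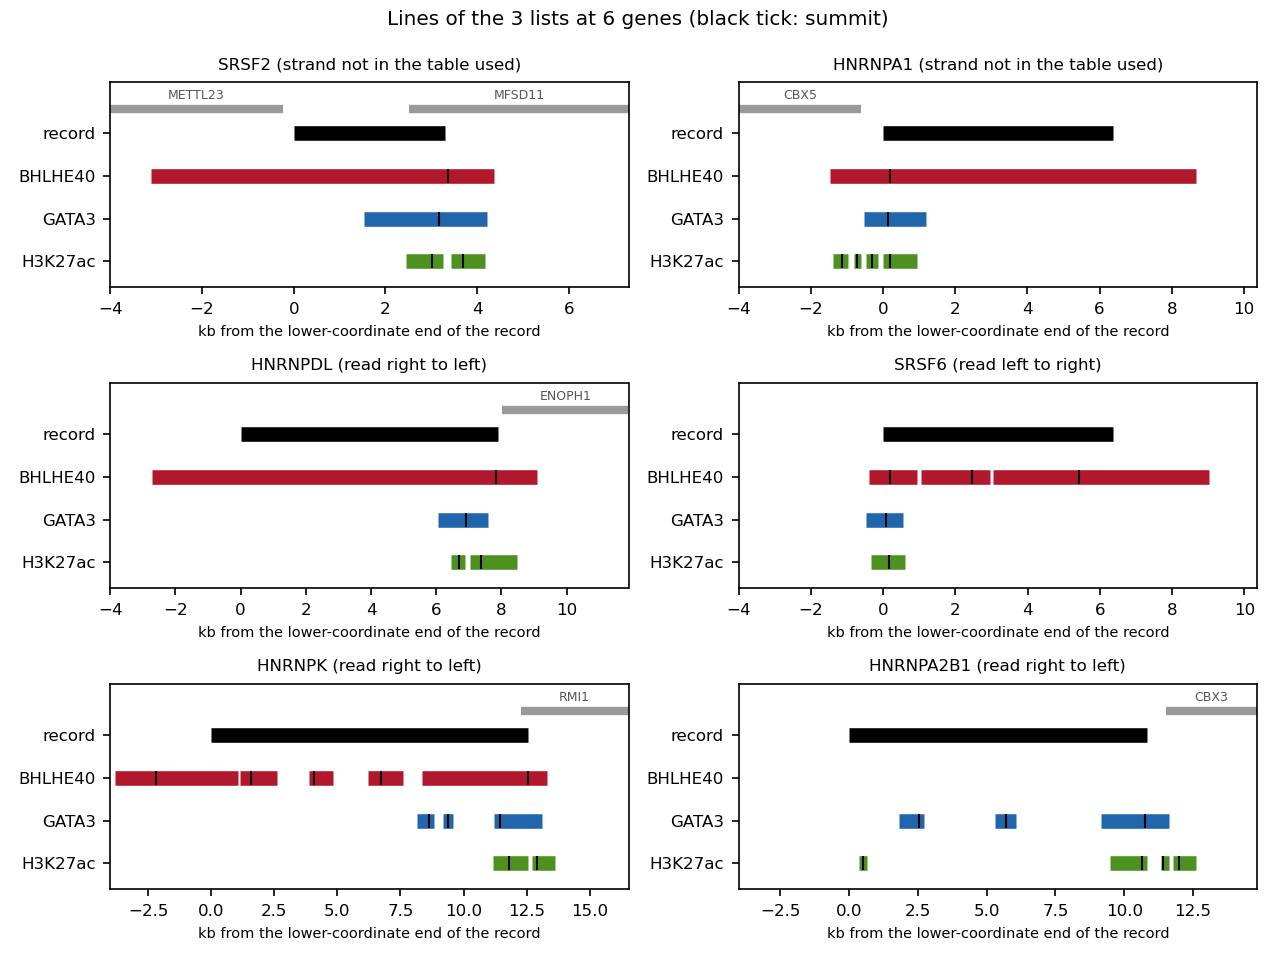
Peaks of the 3 lists that reach a gene record or the 2 kb on either side, at SRSF2, HNRNPA1, HNRNPDL, SRSF6, HNRNPK and HNRNPA2B1, against distance in kb from the lower-coordinate end of the record (black; neighbouring protein-coding records in grey; ticks mark summits). BHLHE40 runs over the length of the first 5 genes, GATA3 and H3K27ac lie mostly near one end, and HNRNPA2B1 has no BHLHE40 peak.

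The 70 BHLHE40 peaks at the 38 genes were wider than those of the whole list, with a similar median signal value. Their median width was 1764 bp against 739 bp over the list of 26205, and their median signal value 9.39 against 9.35. The strongest BHLHE40 peak per gene was higher here, with a median signal value of 13.9 against 7.16 over all protein-coding records. Genes without a peak entered these medians as 0. Among genes with an H3K27ac peak the medians were 16.4 and 9.83. Peaks of at least 5000 bp made up 8 of the 70 (11.4%) and 95 of the whole list (0.363%). They lay at 7 genes, HNRNPH1, HNRNPDL, HNRNPA1, SRSF2, HNRNPC, SRSF6 and SRSF5 (18.4% of the 38, background 0.589%). The signal values of these 8 peaks ran from 6.75 at SRSF5 to 28.2 at SRSF2. The peaks of the other lists were also wider here than over their lists, with medians of 952 against 596 bp for GATA3 and 433 against 232 bp for H3K27ac. The widest GATA3 peak at these genes was 2677 bp and the widest H3K27ac peak 1891 bp. The highest BHLHE40 signal value was 42.7 (rank 562 of 26205), at HNRNPUL1, a relative of the scaffold protein HNRNPU, with its summit 44 bp before an annotated start, followed by 32.3 at SRSF7 and 29.0 at SRSF1.

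Most of the bases that BHLHE40 peaks covered in these genes lay outside H3K27ac peaks. Of 119 kb of the 38 records covered by BHLHE40, 30.7% was also covered by H3K27ac, against 58.8% of the 15127 kb covered over all protein-coding records. At SRSF6 the value was 9.91%, at HNRNPH1 12.7%, at HNRNPA1 14.8% and at HNRNPK 15.0%. The highest values were 94.4% at HNRNPH2, 92.6% at HNRNPF and 91.7% at SRSF9, each with 1 BHLHE40 peak. A single peak did not by itself go with a high value, since HNRNPDL, with 1 wide peak, had 16.2%. The 13723-bp peak at HNRNPH1 overlapped 0 H3K27ac peaks and 2 GATA3 peaks.

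The peaks over gene bodies often ran past the 3′ end. Strand was known for 34 of the 38 genes, and at 10 of them (29.4%) a BHLHE40 peak lay over the last base of the record, against 3.16% of 15843 protein-coding records with a strand. The 10 genes were SRSF3, SRSF6, SRSF7, SRSF10, HNRNPA3, HNRNPAB, HNRNPDL, HNRNPH1, HNRNPK and HNRNPL. The peak went on past the 3′ end for 590 bp at SRSF10, the shortest, and 4978 bp at HNRNPH1, the longest. H3K27ac covered the 3′ end at none of these 10 genes. Thus 10 of the 34 (29.4%) had BHLHE40 without H3K27ac there, against 1.72% of the 15843 records. Of the 500 protein-coding records with BHLHE40 over the 3′ end, 273 had no H3K27ac there. An H3K27ac peak lay over the 3′ end at 1 of the 34 genes (background 2.79%) and a GATA3 peak at 0 of 34 (background 1.10%). At SRSF5 a peak of 5465 bp (69772020 to 69777484 on chromosome 14) began just past the 3′ end of the record at 69772005. A peak of 2117 bp at SRSF1 also lay just past the 3′ end, but its summit was inside the neighbouring record of VEZF1. H3K27ac peaks of 368, 643 and 327 bp lay inside this BHLHE40 peak, and it cannot be assigned to SRSF1 alone. A neighbouring protein-coding record overlaps the 3′ part of HNRNPAB (PHYKPL) and lies 885 bp past that of SRSF10 (PNRC2). A noncoding RNA record spans HNRNPH1, and another overlaps the 3′ part of HNRNPL.

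Averaged over the 31 genes with a known strand and a record of at least 2500 bp, and with the record cut into 20 equal bins, BHLHE40 covered 55.0% of the first 4 bins, 19.3% of the middle 12, 25.6% of the last 4 and 34.8% of the 2 kb after it. Over 14662 protein-coding records the same values were 10.1%, 1.78%, 1.70% and 3.40%. GATA3 at the 31 genes covered 25.0%, 3.37%, 2.13% and 2.11% of these stretches, and H3K27ac 38.5%, 3.71%, 2.76% and 4.0%. In the 2 kb past the 3′ end, BHLHE40 at the 31 genes thus stood above its own level in the middle of the record, as it also did over all protein-coding records. Over all protein-coding records the other lists did so too. H3K27ac covered 1.99% of the middle and 3.30% of the 2 kb after the record, and GATA3 0.915% and 1.22%.

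**Figure D3:**
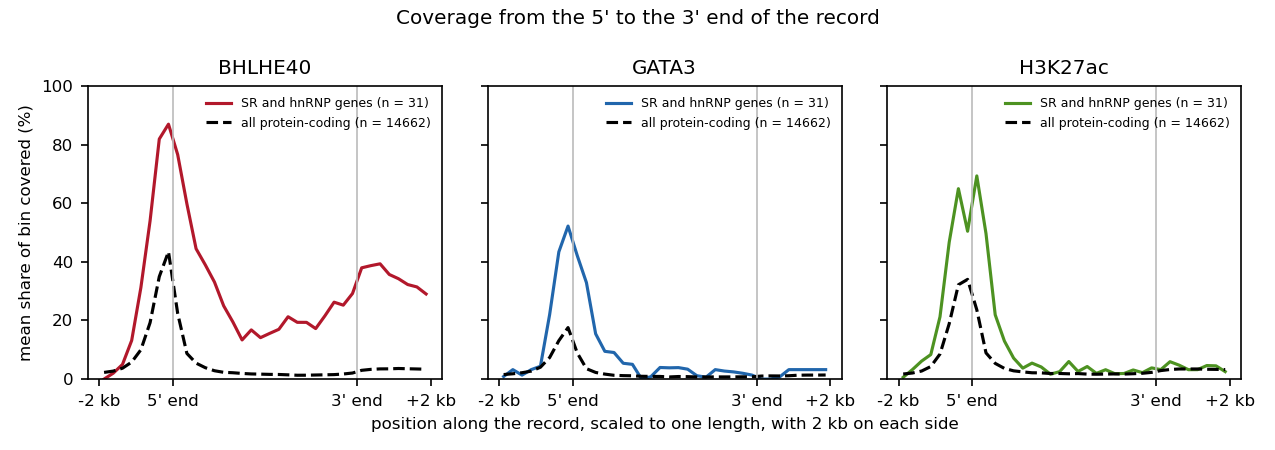
Mean percentage of each bin covered by peaks along the gene record scaled to one length (20 bins) and in the 2 kb on each side (8 bins of 250 bp each), for the 31 SR and hnRNP genes (solid) and 14662 protein-coding records (dashed). All lists peak at the 5′ end, and BHLHE40 rises again past the 3′ end in both sets, to an average of 34.8% in the 2 kb there at the SR and hnRNP genes and 3.4% over all records. Over all records H3K27ac and GATA3 also rise there, to 3.30% and 1.22%.

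Annotated starts came from the RefSeq promoter table, which held 34 of the 38 genes with 48 start windows. SRSF2, HNRNPA1, HNRNPA1L3 and HNRNPCL3 had no entry. A BHLHE40 summit lay within 1 kb of a start at 28 of 34 genes (82.4%, background 48.0%), a GATA3 summit at 20 (58.8%, background 22.1%) and an H3K27ac summit at 30 (88.2%, background 56.9%). Among the genes with a summit that near, the median distance was 75.5 bp for BHLHE40, 80.0 bp for GATA3 and 178 bp for H3K27ac. H3K27ac summits lay downstream of the start at 28 of these 30 genes and GATA3 summits at 14 of 20, whereas BHLHE40 summits lay downstream at 11 of 28, upstream at 16 and on the start at 1. The BHLHE40 summit was at the start itself at HNRNPH3, 2 bp from it at HNRNPC and 6 bp at HNRNPH2. It was 9 bp away at SRSF11, 13 bp at SRSF9 and 22 bp at SRSF3. Another protein-coding record overlaps the start at HNRNPH3 (PBLD) and HNRNPH2 (RPL36A-HNRNPH2). Others lie 94 bp from SRSF9 (DYNLL1), 117 bp from SRSF11 (LRRC40) and 297 bp from HNRNPH2 (GLA).

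The E-box CACGTG, which reads the same on both strands, was searched in these windows of 250 bases before to 50 after the start. It was found at 7 of 34 genes (20.6%, background 10.9% of 15843 genes with a window), all of them HNRNP genes: HNRNPA3, HNRNPD, HNRNPDL, HNRNPH2, HNRNPH3, HNRNPM and HNRNPUL1. Counted by window it was in 8 of 48, against 8.34% of 22199 protein-coding windows. The longer form TCACGTGA, which contains it, was at 3 genes (8.82%, background 1.65%). The looser CANNTG, which also contains it, was at 22 (64.7%, background 70.5%). The 7 genes held 9 copies of CACGTG, all inside a BHLHE40 peak, against 58.6% of 1972 copies at protein-coding genes. With or without a copy, a BHLHE40 peak lay over the 5′ end of the record at 82.4% of the 34 genes. The share was 42.2% of protein-coding records with a strand, so the difference in copies cannot be tied to the motif. The median distance of the 9 copies to the nearest BHLHE40 summit was 112 bp, and 73.5 bp for the copies in a peak over all protein-coding genes. A match of letters is a description and no evidence of binding at that site.

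The 250 bases before the start are shown for the 3 genes with TCACGTGA, for HNRNPM, which has the shorter E-box, and for SRSF7, which has none although its BHLHE40 signal value of 32.3 was the second highest of the 38 genes. They are RefSeq sequence of GRCh38.p14, read 5′ to 3′ on the strand of the gene, with CACGTG in capitals. The E-box lay 68 bp from the nearest BHLHE40 summit at HNRNPD (chr4:82373992-82374241, minus strand), 439 bp at HNRNPA3 (chr2:177212544-177212793, plus strand) and 112 bp at HNRNPM (chr19:8444725-8444974, plus strand). HNRNPH2 (chrX:101407972-101408221, plus strand) had 2 copies, 45 and 12 bp from the summit. The SRSF7 sequence is chr2:38751495-38751744 on the minus strand, before the outer of its 2 starts. It holds no BHLHE40 summit: the summit lies in the window of the other start, which is not shown and also has no E-box.
HNRNPD: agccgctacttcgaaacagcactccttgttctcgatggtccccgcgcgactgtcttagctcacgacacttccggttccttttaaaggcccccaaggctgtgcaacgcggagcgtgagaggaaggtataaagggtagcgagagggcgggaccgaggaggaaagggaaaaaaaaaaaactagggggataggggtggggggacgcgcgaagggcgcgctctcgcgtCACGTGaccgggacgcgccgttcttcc
HNRNPA3: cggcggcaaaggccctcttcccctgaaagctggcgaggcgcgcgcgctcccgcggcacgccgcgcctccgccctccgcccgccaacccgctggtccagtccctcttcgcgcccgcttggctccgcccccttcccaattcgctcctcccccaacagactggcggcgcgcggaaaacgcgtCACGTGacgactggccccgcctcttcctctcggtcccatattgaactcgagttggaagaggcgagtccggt
HNRNPH2: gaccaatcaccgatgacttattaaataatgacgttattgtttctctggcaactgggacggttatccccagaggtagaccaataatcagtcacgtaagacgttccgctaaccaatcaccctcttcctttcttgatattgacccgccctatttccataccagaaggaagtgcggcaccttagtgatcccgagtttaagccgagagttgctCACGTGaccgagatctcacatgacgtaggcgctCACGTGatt
HNRNPM: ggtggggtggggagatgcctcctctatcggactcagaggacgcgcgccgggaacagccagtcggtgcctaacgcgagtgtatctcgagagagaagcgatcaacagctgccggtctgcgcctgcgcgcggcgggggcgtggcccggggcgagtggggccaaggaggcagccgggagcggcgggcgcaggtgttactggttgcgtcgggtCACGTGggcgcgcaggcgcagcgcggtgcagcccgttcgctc
SRSF7: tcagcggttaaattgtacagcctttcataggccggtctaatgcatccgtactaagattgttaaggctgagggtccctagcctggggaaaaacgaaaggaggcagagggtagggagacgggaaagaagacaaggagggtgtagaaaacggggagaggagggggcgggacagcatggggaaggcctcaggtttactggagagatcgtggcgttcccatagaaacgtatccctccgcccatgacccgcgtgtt
Counted from the start, the E-box begins at position -71 in HNRNPA3, -27 in HNRNPD, -42 in HNRNPM, and -42 and -9 in HNRNPH2. None of the SRSF windows held CACGTG, although 10 of 11 SRSF genes with a window had a BHLHE40 summit within 1 kb of the start.

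The GATA motif AGATAA, searched on both strands, was in 0 of the 48 windows at these genes (background 10.2% of genes), and the ETS motif CCGGAAGT, also on both strands, was at 3 of 34 genes (8.82%, background 6.97%), SRSF4, SRSF5 and HNRNPD. The strongest GATA3 peaks lay inside gene records. The highest signal value, 98.9 (rank 267 of 29009), was in HNRNPC, which binds runs of U, at 21229176 to 21230758 on chromosome 14, with its summit 39478 bp inside the record from the 5′ end. A BHLHE40 peak of 1242 bp with a signal value of 23.3 lay in the same place. The next was 84.6 in HNRNPLL, the hnRNP best known for CD45 splicing in T cells, 23823 bp from the 5′ end (38578616 to 38579420 on chromosome 2). It too overlapped a BHLHE40 peak, with a signal value of 16.5. The third was 65.3 in HNRNPL, which binds CA repeats and also acts on CD45, 1614 bp from the 5′ end (38850330 to 38851974 on chromosome 19).

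The highest H3K27ac signal values were 17.7 at SRSF6 (rank 267 of 113570), 15.1 at SRSF10 and 14.7 at HNRNPA0, each in a peak over the start. The largest H3K27ac coverage was 35.7%, at SRSF8, whose signal value was 4.42. At SRSF10, a splicing repressor when dephosphorylated, 3 BHLHE40 peaks lay along the record and no GATA3 peak was within 4.07 kb.

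Genes without peaks fell into 3 kinds. HNRNPA2B1, an abundant reader of RNA marks, was the single gene with GATA3 and H3K27ac but no BHLHE40. It had 3 GATA3 peaks, with signal values of 7.34, 14.4 and 10.4, that covered 31.1% of the record, second to SRSF2 among the 38 genes, and 2 H3K27ac peaks that covered 14.8%. Its strongest H3K27ac peak, with a signal value of 9.23, lay outside the record, on the side of the neighbouring gene CBX3. The nearest BHLHE40 peak lay 37.5 kb away with a signal value of 8.69. The second kind was SRSF12, with 1 weak H3K27ac peak (−log10 q of 2.58) and no peak of either factor, the nearest BHLHE40 peak being 12.9 kb away. The third kind had no peak in any list: HNRNPA1L3 and the 4 genes HNRNPCL1, HNRNPCL2, HNRNPCL3 and HNRNPCL4, which are short copies of HNRNPA1 and HNRNPC with records of at most 2110 bp. How reads that fit several copies were treated is not given in the sources used here, so the absence of peaks at these 5 genes cannot be read as absence of binding. The other 33 genes all had an H3K27ac peak, and of these 33, 31 had a BHLHE40 peak and 26 a GATA3 peak. Among protein-coding records with an H3K27ac peak, 76.7% had a BHLHE40 peak and 56.8% a GATA3 peak. Since the 5 genes were grouped for having no peak, leaving them out raises every share by construction. GATA3 peaks were further missing at SRSF8, SRSF9, SRSF10, HNRNPF, HNRNPH2 and HNRNPUL2, all with BHLHE40 and H3K27ac. The nearest GATA3 peak to HNRNPUL2 was 2.56 kb away, just outside the window, and the nearest to SRSF8 69.2 kb.

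A fixed list of other genes of the pathway, 52 of 53 found in the gene table, gave a comparison within RNA processing. BHLHE40 peaks were at 46 of the 52 genes (88.5%), GATA3 peaks at 42 (80.8%) and H3K27ac peaks at 51 (98.1%). The records are longer, with a median of 33247 bp, and the median BHLHE40 coverage was 3.46%. Coverage reached 50% at 5 of the 52 genes (9.62%). All 5 were in the group of 32 other RNA-binding proteins, among them PCBP1, a C-rich RNA binder, at 92.5%, TRA2B, an SR-like splicing activator, at 61.8%, CIRBP, a cold-induced protein, at 53.4% and RBM39 at 52.3%. The highest value among 12 SR kinases, importins and arginine methyltransferases was 24.7% at CLK1, which phosphorylates SR proteins, and the highest among 8 core splicing factors was 8.06% at SF1. The BHLHE40 peak lay over the 3′ end at 6 of 44 pathway genes with a strand (13.6%). In some measures only, the 32 other RNA-binding proteins stood nearer to the SR and hnRNP genes than the whole list did. Of these 32, 15.6% reached 50% coverage, and 20.8% of those with a strand had a peak over the 3′ end. They stood further away for having a BHLHE40 peak (90.6%), a GATA3 peak (87.5%) or all 3 lists (84.4%). Their median BHLHE40 coverage was 3.49%, close to that of the whole list. H3K27ac covered 31.9% of their BHLHE40 bases, close to the 30.7% at the SR and hnRNP genes. The 6 genes without a BHLHE40 peak were SRPK1, SRPK3, TIA1, ESRP1, ELAVL1 and U2AF1.

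**Figure D4:**
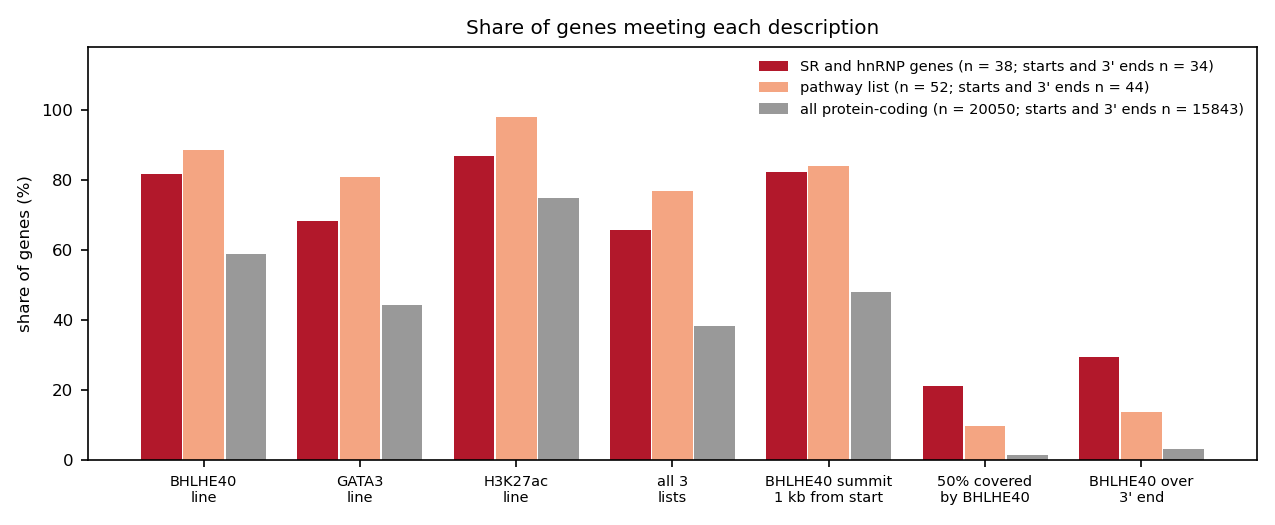
Percentage of genes (vertical axis) that meet each of 7 descriptions, where a line is 1 peak of a list, for the 38 SR and hnRNP genes, the 52 other pathway genes and the 20050 protein-coding records (34, 44 and 15843 where a start or strand is needed). The pathway genes stand as high as or higher than the SR and hnRNP genes for having a peak, and lower for BHLHE40 coverage of 50% (9.62% against 21.1%) and over the 3′ end (13.6% against 29.4%).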

How the data were processed

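ChIP-seq peaks of 3 groups of 2 stimulated Jurkat samples with the control lentivirus were used, grouped by sample title. MACS2 and the build hg38 are named in the submitters' processing notes, without a version or role. The aligner and filters for these samples are not given in the sources used here. The names of the factor lists state an irreproducible discovery rate of 0.05, and that of the H3K27ac list says pooled. The deposited score ran from 540 to 1000 in the factor lists. The signal value was deposited by the authors without a stated reference. The −log10 q is also the authors' deposited value. Depth is unknown.

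Gene records and promoter windows came from RefSeq GRCh38.p14. Peaks were counted with an overlap of at least 1 bp in the record plus 2 kb, and coverage used the record alone. Strand and starts came from the promoter table. Interval and motif functions were tested on simulated data. No test was made, since each group is 1 list. Python 3.11.15 with numpy 2.4.6, pandas 2.3.3 and matplotlib 3.10.9 was used.

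The genes, the pathway list and the descriptions were chosen with earlier results of these data known. The 50% and 90% coverage levels, the 3′ ends, the profile, the wide peaks and the overlap of BHLHE40 bases with H3K27ac were added after seeing the data. Named genes were the 8 with the largest BHLHE40 coverage or at least 50%, those without a peak in a list, the 3 strongest per list and 7 textbook members (SRSF1, SRSF2, SRSF3, HNRNPA1, HNRNPA2B1, HNRNPK, HNRNPU). In the pathway list they were the 3 with the largest coverage and those without a BHLHE40 peak. The values of 1 gene of that list are not reported here. Other names were chosen after their values were seen. Where the plan allowed the nearer end of a record for genes without a start, these genes were left out.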

Additional observations from a re-analysis of the deposited data

How the results depend on the processing

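Across 10 results, 38 alternatives were computed, 32 planned and 6 added after seeing the data. Under other windows, overlap rules and thresholds, 28 to 31 genes had a BHLHE40 peak and 22 to 28 a GATA3 peak. The range was 32 to 33 genes for H3K27ac and 21 to 27 for all 3 lists. The share of all protein-coding records ran from 53.3% to 61.6% for BHLHE40 and 36.9% to 48% for GATA3. It ran from 59.2% to 78.4% for H3K27ac and 29.0% to 41.6% for all 3 lists. The median BHLHE40 coverage of 10.7% was 12.9% with 2 kb on each side, 7.63% without peaks of at least 5000 bp, 16.4% without records under 2 kb, 11.6% in records of 5 to 50 kb and 19.3% in records with an H3K27ac peak. The same medians over protein-coding records were 1.03%, 0.475%, 0.635%, 1.22% and 1.42%. The count of genes with CACGTG, 7, was 3 for TCACGTGA (background 1.65%) and 22 for CANNTG (background 70.5%). The count of genes covered over at least 50%, 8, was 7 with a score of at least 830 (1.30% of protein-coding records). It was 3 without peaks of at least 5000 bp (1.14% of protein-coding records), so it rests on the widest peaks. BHLHE40 over the 3′ end was found at 8 genes with a score of at least 830 (background 2.80%) and 7 without the widest peaks (background 2.76%).

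No paired analysis was possible because no list holds values for a single sample, and leaving out a replicate was not run for the same reason. Depth is unknown, so a missing weak peak cannot be told from one not detected.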

Other observations

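Copies of these genes without a protein product were looked at separately. Of 142 pseudogenes named after SRSF or HNRNP genes, 4 had a BHLHE40 peak in the record plus 2 kb (2.82%), 9 a GATA3 peak (6.34%) and 27 an H3K27ac peak (19.0%). Over all 16845 pseudogenes the shares were 5.37%, 5.67% and 15.9%. The treatment of reads that fit several copies is not given, so a missing peak at a pseudogene cannot be read as absence of binding. The 4 pseudogenes with BHLHE40 were HNRNPA1P34, HNRNPA1P44, HNRNPA1P49 and HNRNPRP1, and at 3 of them the window also held a protein-coding gene (KLRG1, SFT2D1 and MLLT10). Each of the 4 also had a GATA3 and an H3K27ac peak.

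Of the 3 noncoding RNA records with these names, all 3 had BHLHE40 and GATA3 peaks: HNRNPD-DT, which starts 577 bp from HNRNPD, HNRNPK-AS1, which lies inside HNRNPK and had 4 BHLHE40, 2 GATA3 and 0 H3K27ac peaks, and the read-through HNRNPUL2-BSCL2, with 4, 1 and 6. Their peaks are in part those of the protein-coding genes they overlap or adjoin.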
